A study of Rattus norvegicus with 12 samples.

Results

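The calpain and calpastatin genes are 10 genes, taken by name from the 33294 genes of the count table: Capn1, Capn2, Capn5, Capn6, Capn7, Capn9, Capn10, Capn15, Capns1 and Cast. They were chosen with the fall of Capn9 in the MBNL knockdown known, so Capn9 is described, and not tested, in every comparison that uses the differentiated control or the MBNL knockdown. The RNA came from PAC1, a rat pulmonary artery smooth muscle cell line, in 12 poly(A) RNA-Seq libraries in 4 groups of 3. D1 is the differentiated subculture, PAC1-D, given control siRNA, and P is the proliferative subculture, PAC1-P, given control siRNA. RBPMS KD1 is PAC1-D given siRNA to Rbpms, and MBNL KD is PAC1-D given siRNAs to Mbnl1 and Mbnl2. PAC1-D was passaged once a week and PAC1-P was passaged more often and at a higher dilution. All groups were therefore cells of 1 line in serum that had been given siRNA, and D1 and P differ in passage history as well as in state.

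Calpains are intracellular cysteine proteases, many of them activated by calcium, that cut their substrates at a few positions and so alter proteins without destroying them. The conventional enzymes, calpain-1 and calpain-2, each pair a large catalytic subunit (Capn1 or Capn2) with the common small subunit encoded by Capns1, and calpastatin (Cast) is their dedicated inhibitor. In vascular smooth muscle they are known for cleaving focal adhesion and cytoskeletal proteins when cells move or remodel. RBPMS and the MBNL proteins are RNA-binding regulators of alternative splicing, and gene-level counts do not show splicing.

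The siRNAs that define the groups are shown as their sense strands, 5′ to 3′, as listed by the authors, with no base marked by capitals.
C2 control: aagguccggcucccccaaaug
RBPMS: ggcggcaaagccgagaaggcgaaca
MBNL1 THH2: cacggaauguaaauuugcauu
MBNL2: gaagaguaauugccugcuuuu
The labels give 90 pmol of siRNA for 200000 cells in a well, a second treatment after 24 h and assessment 48 h after that, and the study's methods give longer times and other cell numbers, with more cells seeded per well for PAC1-D than for PAC1-P. Levels are given in CPM, the counts of a gene relative to the size of its library, with sizes scaled by trimmed mean of M values (TMM) factors over all 12 libraries. They are given as mean ± SD over n = 3 libraries, and they are not divided by transcript length, so levels of the members are not compared with each other.

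Rbpms in RBPMS KD1 was at 25.0% of its D1 mean, and Mbnl1 and Mbnl2 in MBNL KD were at 23.7% and 29.5% of theirs. Total counts per library lay between 80842635 and 90771289. The 8 smooth muscle markers summed to 9819 to 10319 CPM in D1, 4889 to 5066 in RBPMS KD1, 7818 to 7935 in MBNL KD and 210 to 224 in P. In MBNL KD 2 of the 8 were higher than in D1 by the adjusted p alone, Myh11 by 0.54 (adjusted p = 1.3e-13) and Cnn1 by 0.12 (adjusted p = 0.026), and 6 were lower. Of all genes, 67.5% passed the adjusted p there, and 0 of the 8 markers were called. The 4 endothelium markers summed to 0.747 to 0.817 CPM in D1, 5.42 to 6.70 in P, 1.83 to 1.84 in RBPMS KD1 and 0.934 to 1.41 in MBNL KD, with Cdh5 at 0 in all libraries outside P. In RBPMS KD1 Vwf and Tek were called higher than in D1, by 1.22 (SE 0.22, adjusted p = 2.4e-05) and 1.32 (SE 0.29, adjusted p = 2.2e-04) on the log2 scale. The 5 epithelium markers summed to 35.6 to 37.3 CPM in D1, 80.3 to 83.2 in P, 38.9 to 41.5 in RBPMS KD1 and 53.6 to 54.4 in MBNL KD. The sum followed the keratin Krt8, which had means of 36.3 CPM in D1 and 81.6 CPM in P, and the other 4 had at most 21 counts in any library, with Epcam and Cdh1 at 0 in D1. The 3 macrophage markers summed to 0.874 to 1.10 CPM in D1, 0.848 to 1.39 in P, 0.924 to 1.34 in RBPMS KD1 and 1.35 to 1.49 in MBNL KD, with Ptprc at 0 in D1 and MBNL KD. In MBNL KD Csf1r was called higher than in D1, by 1.30 on the log2 scale (SE 0.29, adjusted p = 2.4e-04). The part of these marker differences in the results for P, RBPMS KD1 and MBNL KD was not tested, and in bulk RNA fewer cells of a type and less RNA per cell cannot be told apart.

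Capn1 was lower than D1 in all 3 conditions, Capn5 was higher in P and RBPMS KD1 and lower in MBNL KD, Capns1 was lower in P and MBNL KD, and Cast was lower in P and RBPMS KD1. Capn6 held 50 to 58 counts in the P libraries and few or none elsewhere. It held 4 to 11 in MBNL KD, 2 in each RBPMS KD1 library and 0 in D1. A gene was called when its adjusted p was under 0.05 and its absolute log2 fold change was above 1, and the genes past the adjusted p alone are given beside it (edgeR quasi-likelihood test, Benjamini-Hochberg adjustment over all genes tested). In P against D1, 2 of the 9 members tested were called, Capn5 and Capn6, both higher in P, where 27.6% of all genes tested were called, 16.4% higher and 11.2% lower. All 9 passed the adjusted p alone, 5 higher and 4 lower, where 77.9% of all genes did. Capn6 passed the filter on low counts through the P libraries in which it was high, so it had to differ. Of all genes called in P against D1, 59.4% were higher in P, and 46.1% were under quantile normalization.

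In RBPMS KD1 against D1, 0 of the 8 members tested were called by edgeR, where 4.68% of all genes were, 3.06% higher and 1.62% lower. Past the adjusted p alone were 7 of the 8, 3 higher and 4 lower, against 59.1% of all genes. In MBNL KD against D1, the comparison that led to the choice, 0 of the 8 members tested were called by edgeR, where 10.2% of all genes were, 6.1% higher and 4.14% lower. There, 6 of the 8 passed the adjusted p alone, 1 higher and 5 lower, where 67.5% of all genes did. The share of calls that were higher was 65.4% in RBPMS KD1 and 59.6% in MBNL KD, and 53.2% and 50.1% under quantile normalization. Differences from D1 in the conditions share the D1 libraries.

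Without D1, P against RBPMS KD1 gave 2 called members of the 10 tested, Capn6 higher and Capn9 lower in P, where 29.1% of all genes were called. All 10 passed the adjusted p alone, 5 in each direction, where 79.4% of all genes did. Capn6 passed the filter through the P libraries here too, so it had to differ. MBNL KD against RBPMS KD1 gave 1 called member of 8, Capn5, lower in MBNL KD, where 11.9% of all genes were called. Past the adjusted p alone were 6 of the 8, 2 higher and 4 lower, where 69.5% of all genes were. The share of members called was near or under that of all genes in each of the 4 comparisons other than MBNL KD against D1. By the adjusted p alone it was above it in those 4, but so few members give no result about the family. In MBNL KD against RBPMS KD1 the 6 of 8 lay near the 69.5% of all genes, and both comparisons with P count Capn6, which had to differ.

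**Figure D1:**
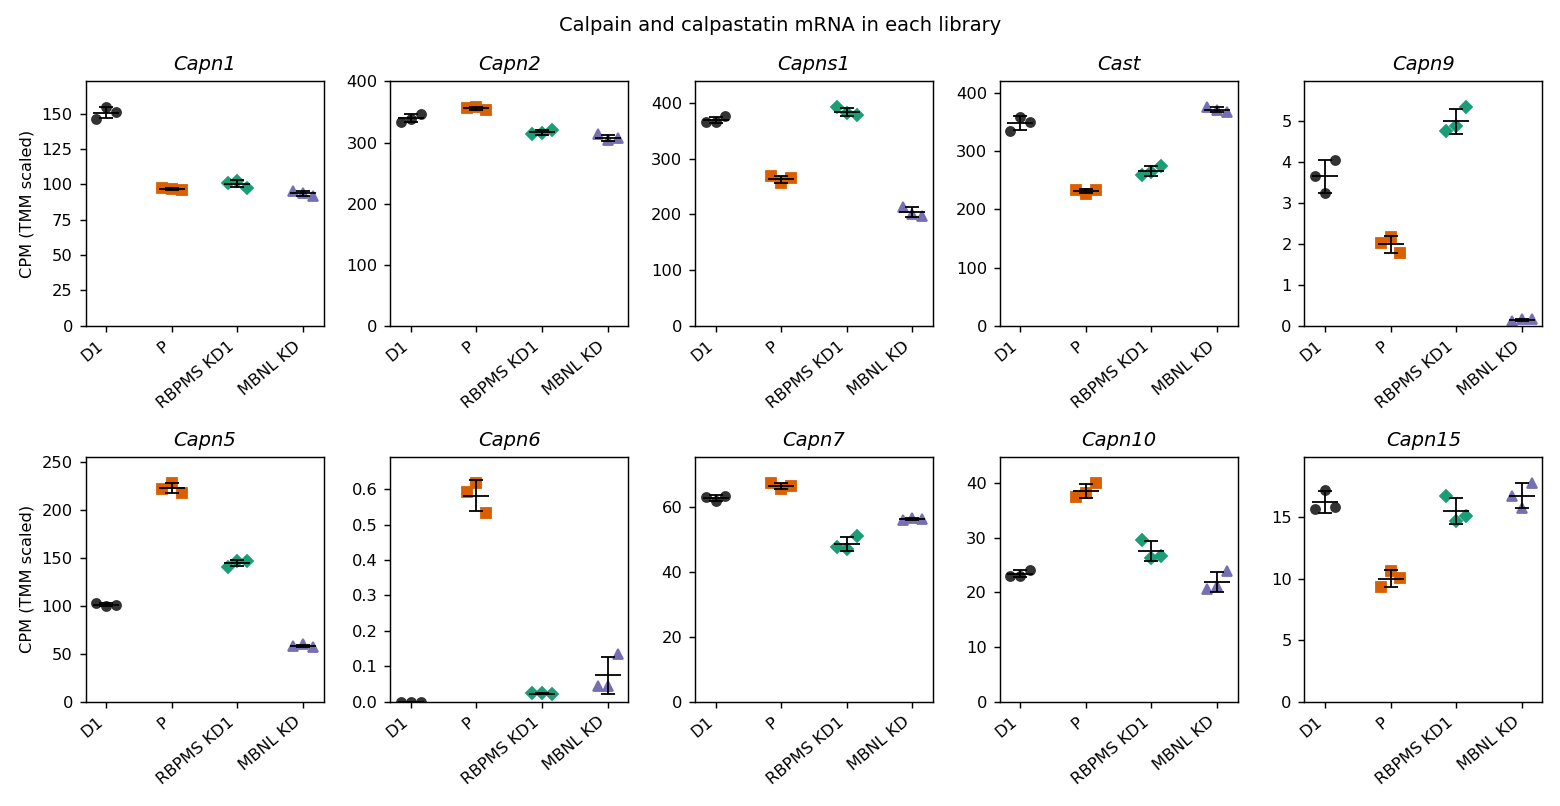
Level of each of the 10 genes in each library, in CPM scaled by TMM factors (vertical axis, from 0 and set separately for each gene), by group. Points are libraries, bars are the mean ± SD over n = 3. Capn9 sat at 0.123 to 0.160 CPM in MBNL KD and above 1.77 CPM elsewhere, and Capn5 had 4 separate groups with P at the top and MBNL KD at the bottom.

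Among the subunits of the conventional enzymes, Capn1 was lower than D1 in all 3 conditions. Its level was 146, 154 and 151 CPM in the D1 libraries, 97.7, 96.6 and 96.2 in P, 101, 103 and 97.6 in RBPMS KD1, and 95.2, 94.2 and 91.9 in MBNL KD. Every D1 library lay above every other library, P and RBPMS KD1 overlapped, and MBNL KD was lowest. Capn1 fell by 0.64 (SE 0.027) on the log2 scale in P (adjusted p = 9.3e-21), by 0.58 (SE 0.028) in RBPMS KD1 (adjusted p = 1.8e-16) and by 0.68 (SE 0.025) in MBNL KD (adjusted p = 2.6e-20), to 64.2%, 66.6% and 62.2% of the D1 mean. The direct differences were small, at -0.08 for P against RBPMS KD1 (adjusted p = 0.015) and -0.10 for MBNL KD against RBPMS KD1 (adjusted p = 0.0020). The first no longer passed the adjusted p threshold in 6 of 15 alternatives, among them those without P replicate 3 (adjusted p = 0.052) and without RBPMS KD1 replicate 2 (adjusted p = 0.098), with adjusted p between 0.0081 and 0.098 over all 15. The second no longer passed under quantile normalization (adjusted p = 0.14) and in limma on the authors' normalised values (adjusted p = 0.16), in a range of 0.00017 to 0.16.

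Capn2, the catalytic subunit of calpain-2, moved little. Its libraries lay at 334, 339 and 347 CPM in D1, 357, 358 and 353 in P, 314, 315 and 321 in RBPMS KD1, and 313, 303 and 308 in MBNL KD. The order was P, D1, RBPMS KD1 and MBNL KD, with no overlap between neighbours, but the direct difference of MBNL KD from RBPMS KD1 was -0.04 and did not pass the test (adjusted p = 0.18). It was 0.0021 under quantile normalization and 0.0018 in limma on the authors' normalised values, so that order was not kept. The log2 fold change was 0.07 (SE 0.024, adjusted p = 0.013) in P, -0.10 (SE 0.025, adjusted p = 0.0010) in RBPMS KD1 and -0.13 (SE 0.025, adjusted p = 2.9e-05) in MBNL KD. The value in P did not pass without D1 replicate 1 (adjusted p = 0.13), and over 15 alternatives the value for P lay between 0.05 and 0.25 with adjusted p between 1.5e-09 and 0.13. Neither knockdown passed under quantile normalization, with adjusted p = 0.35 in RBPMS KD1 and 0.37 in MBNL KD, or in limma on the normalised values. The values under quantile normalization were the highest of 15 alternatives for each, whose lowest were 0.00012 and 1.7e-08.

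Capns1, the small subunit shared by both enzymes, was lowest in MBNL KD. Its level was 365, 365 and 376 CPM in D1, 268, 256 and 265 in P, 392, 382 and 377 in RBPMS KD1, and 214, 201 and 197 in MBNL KD. The MBNL KD libraries lay below the P libraries, and both lay below all D1 and RBPMS KD1 libraries. Capns1 fell by 0.85 (SE 0.028) on the log2 scale in MBNL KD (adjusted p = 2.0e-21) and by 0.49 (SE 0.025) in P (adjusted p = 1.6e-18), to 55.2% and 71.3% of the D1 mean. In RBPMS KD1 the log2 fold change was 0.06 (SE 0.025, adjusted p = 0.045), which did not pass in 6 of 15 alternatives. Among these were the fits without D1 replicate 1 (0.16), D1 replicate 2 (0.13), RBPMS KD1 replicate 1 (0.16) and RBPMS KD1 replicate 2 (0.070), and the adjusted p ranged from 0.00025 to 0.16 over the 15. Against RBPMS KD1 directly, Capns1 was lower by -0.91 on the log2 scale in MBNL KD (adjusted p = 4.2e-22) and by -0.57 in P (adjusted p = 9.2e-20).

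Cast, which encodes the inhibitor, was highest in MBNL KD, where Capns1 was lowest. Its level was 334, 359 and 351 CPM in D1, 233, 227 and 233 in P, 258, 265 and 275 in RBPMS KD1, and 375, 371 and 367 in MBNL KD. The 4 groups did not overlap, with MBNL KD highest and P lowest. Cast fell by 0.59 (SE 0.026) on the log2 scale in P (adjusted p = 3.6e-20) and by 0.39 (SE 0.028) in RBPMS KD1 (adjusted p = 1.5e-12), to 66.4% and 76.4% of the D1 mean. In MBNL KD the log2 fold change was 0.10 (SE 0.027, adjusted p = 0.0017), or 107% of the D1 mean, and it did not pass without D1 replicate 1 (adjusted p = 0.057, in a range of 4.2e-08 to 0.057 over 15 alternatives). Between the knockdowns, Cast was higher in MBNL KD by 0.48 on the log2 scale (adjusted p = 7.7e-16).

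**Figure D2:**
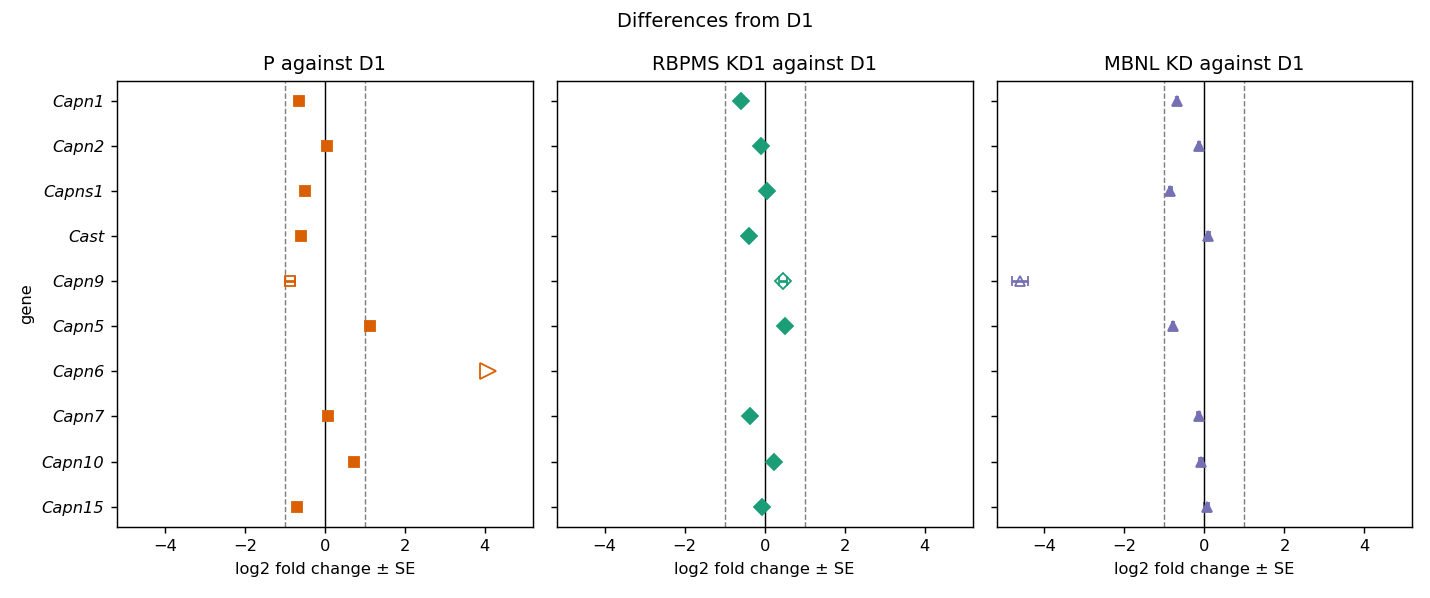
Log2 fold change ± SE (horizontal axis) of each member in P, RBPMS KD1 and MBNL KD against D1, with dashed lines at -1 and 1. Open symbols for Capn9 were not tested, and the open triangle for Capn6 in P marks a lower bound, since Capn6 had no counts in D1. Most SE bars are shorter than the symbols, and Capn5 and Capn6 in P are the tested members beyond the dashed lines.

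Ratios of counts within a library need no scaling between libraries and were used to compare the mRNA balance of subunits and inhibitor. Only how a ratio differed between groups was read, and calpain and calpastatin protein was not measured. The ratio of Cast to Capns1 in MBNL KD was 1.93 times that in D1, a log2 difference of 0.95, and the ratio of Cast to Capn1 was 1.71 times that in D1, a log2 difference of 0.78. In RBPMS KD1 the ratio of Cast to Capns1 was 0.735 times that in D1, a log2 difference of -0.44, on the other side of D1 from MBNL KD, whereas that of Cast to Capn1 was 1.15 times that in D1, a log2 difference of 0.20, on the same side. The ratio of Cast to Capn2 was 0.634 times that in D1 in P, 0.819 times in RBPMS KD1 and 1.18 times in MBNL KD. In P the ratio of Cast to Capn1 was 1.03 times that in D1, a log2 difference of 0.05, which was 0.15 on the authors' normalised values. The ratio of Capn1 to Capn2 was lower in all 3 conditions, at 0.613, 0.715 and 0.686 times that in D1 for P, RBPMS KD1 and MBNL KD. The ratio of Capn2 to Capns1 was 1.47, 0.897 and 1.64 times that in D1 in the same order. In each of the 15 ratios tested, the 3 libraries of the condition did not overlap the 3 of D1, and each had an exact two-sided permutation p of 0.1 and a Benjamini-Hochberg value of 0.1, the smallest that 3 against 3 can give, so none could pass 0.05.

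**Figure D3:**
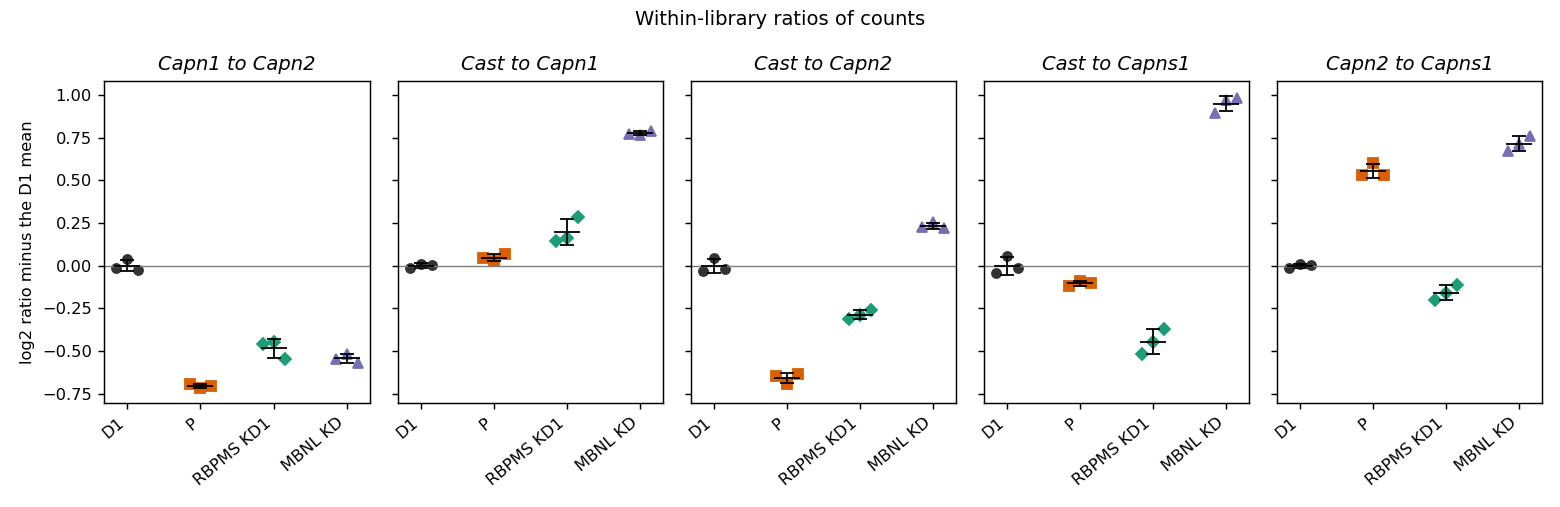
Log2 of the within-library ratio of counts, minus the D1 mean (vertical axis), for 5 pairs of genes by group. Points are libraries and bars are the mean ± SD over n = 3. Cast to Capns1 lies 0.95 above D1 in MBNL KD and -0.44 in RBPMS KD1, and Capn1 to Capn2 lies below D1 in all 3 conditions.

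Capn9 encodes a calpain first known from the digestive tract, which can also pair with the small subunit, and its fall in MBNL KD is what the genes were chosen on. Its level was 3.65, 3.23 and 4.05 CPM in D1, 2.02, 2.17 and 1.77 in P, 4.76, 4.87 and 5.33 in RBPMS KD1, and 0.123, 0.156 and 0.160 in MBNL KD. The MBNL KD libraries held 11, 14 and 13 counts, where the D1 libraries held 317, 278 and 352. The 4 groups did not overlap, in the order RBPMS KD1, D1, P and MBNL KD, with means at 137%, 54.6% and 4.01% of the D1 mean for RBPMS KD1, P and MBNL KD. As a description, the log2 fold change against D1 was -4.62 (SE 0.20), a 24.6-fold lower level, in MBNL KD, -0.87 (SE 0.12) in P and 0.45 (SE 0.095) in RBPMS KD1. In MBNL KD it was -3.003 in limma on the authors' normalised values, whose smallest value is 35, and -4.83 under quantile normalization. In P it was -1.08 and -1.26 under these settings. The comparison that used neither D1 nor MBNL KD was tested, and Capn9 was lower in P than in RBPMS KD1 by -1.35 on the log2 scale (SE 0.11, adjusted p = 1.8e-13, 3 of 3 libraries against 3 of 3). In RefSeq's GRCr8 gene order Agt, the angiotensinogen gene, overlaps Capn9, and whether reads were counted by strand is not stated. Agt had 15 to 41 counts in the 12 libraries and a log2 fold change of -0.22 (SE 0.39, adjusted p = 0.64) in MBNL KD.

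The genes whose log2 CPM followed Capn9 most closely over the 12 libraries, out of 17501, were Zfp91 (Pearson r = 0.997), Uhmk1 (0.995), Tns2 (0.995), Cyb5r3 (0.995) and Preb (0.995). This is a description of 12 libraries in 4 groups that share their preparation, and the groups carry the pattern. Cyb5r3, a cytochrome b5 reductase, had means of 517 ± 9.57 CPM in D1, 401 ± 7.30 in P, 584 ± 13.2 in RBPMS KD1 and 89.4 ± 2.83 in MBNL KD. Preb, a regulator of export from the endoplasmic reticulum, had the same order over a narrower range, at 46.8 ± 0.993, 41.3 ± 0.714, 49.97 ± 1.98 and 28.0 ± 0.214 CPM. The most opposite gene was Tars1, a threonyl-tRNA synthetase (r = -0.993), with 165 ± 3.05 CPM in D1 and 285 ± 5.57 in MBNL KD. By Spearman's correlation the 5 closest genes were others, with 0 shared.

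Promoter windows from RefSeq (GRCr8, 250 bases before to 50 after the start) were matched for 8 of the 10 members, and 3 are shown because these genes differ in how far they moved: Capn9 and Capn6 by the most, and Capn2 by little. The dinucleotide CG is in capitals.
Capn9, chr19:69446597-69446896, plus strand: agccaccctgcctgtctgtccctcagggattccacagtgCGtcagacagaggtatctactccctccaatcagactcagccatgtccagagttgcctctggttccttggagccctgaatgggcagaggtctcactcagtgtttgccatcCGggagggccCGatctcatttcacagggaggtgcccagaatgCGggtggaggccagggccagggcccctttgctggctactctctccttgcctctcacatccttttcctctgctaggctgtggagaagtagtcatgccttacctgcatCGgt
Capn6, chrX:112202129-112202428, minus strand: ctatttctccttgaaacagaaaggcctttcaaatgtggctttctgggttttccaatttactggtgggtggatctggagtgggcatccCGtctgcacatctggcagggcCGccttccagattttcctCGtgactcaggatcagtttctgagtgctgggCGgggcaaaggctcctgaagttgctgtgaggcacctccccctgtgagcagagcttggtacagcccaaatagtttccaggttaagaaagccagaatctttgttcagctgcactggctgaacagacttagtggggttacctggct
Capn2, chr13:96732576-96732875, minus strand: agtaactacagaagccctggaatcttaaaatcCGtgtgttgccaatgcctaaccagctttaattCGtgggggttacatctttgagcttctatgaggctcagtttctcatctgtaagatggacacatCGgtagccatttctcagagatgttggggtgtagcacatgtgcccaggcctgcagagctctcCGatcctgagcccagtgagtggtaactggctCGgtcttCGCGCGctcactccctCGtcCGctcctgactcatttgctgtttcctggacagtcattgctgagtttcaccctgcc
The window of Capn9 holds 5 CG, that of Capn6 holds 4 and that of Capn2 holds 10, where the median of 33469 promoter windows of 300 bases is 7. At least as many CG are found in 62.0%, 69.3% and 41.5% of all windows, and 94.5% of them hold 1 or more. The other 5 windows hold 9 CG (Cast), 21 (Capn15), 24 (Capn10), 28 (Capn7) and 30 (Capns1). TATAAA, searched on both strands, is in 14.2% of all windows and in 0 of the 8. These counts describe the letters of the windows.

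Of the other calpains, Capn5, which lacks the calcium-binding hand domain of the conventional enzymes, had a separate level in each of the 4 groups. Its level was 103, 100 and 101 CPM in D1, 222, 228 and 218 in P, 141, 147 and 147 in RBPMS KD1, and 57.7, 59.7 and 57.4 in MBNL KD. The groups did not overlap, and the knockdowns lay on opposite sides of D1. Capn5 rose by 1.14 (SE 0.026) on the log2 scale in P (adjusted p = 4.0e-28) and by 0.52 (SE 0.028) in RBPMS KD1 (adjusted p = 1.4e-15), to 220% and 143% of the D1 mean. It fell by 0.79 (SE 0.027) in MBNL KD (adjusted p = 7.1e-21), to 57.5%. Between the knockdowns it was lower in MBNL KD by -1.31 (SE 0.028, adjusted p = 2.3e-26), and P lay above RBPMS KD1 by 0.60 (adjusted p = 9.0e-20).

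Capn6, a calpain without the active-site cysteine that is known to bind microtubules, was read in few fragments. The D1 libraries held 0, 0 and 0 counts, P held 56, 58 and 50, RBPMS KD1 held 2, 2 and 2, and MBNL KD held 4, 4 and 11. P lay above every other library, at 0.582 ± 0.043 CPM. Against a limit of 3 counts in each D1 library, with each count taken as 1 fragment, Capn6 was at least 16.8-fold higher in P than in D1. That bound would be lower if both mates of a pair were counted. Most low counts in these libraries were even (67.3% to 70.3% of counts from 1 to 20), as when both mates of a pair are counted, so the RBPMS KD1 counts may be 3 pairs in all against 82 in P. The ratio of P to RBPMS KD1 was then 25.6, with an exact 95% interval of 8.46 to 127 for counting error. No p is given for Capn6, which entered both comparisons through the P libraries and so had to differ. In limma on the authors' normalised values, whose smallest value is 35, its log2 fold change was 1.13 in P against D1 and 1.05 in P against RBPMS KD1. With a minimum of 10 counts in every library Capn6 was not tested, and 1 member was called in P against D1 and 1 in P against RBPMS KD1.

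Capn10, an atypical calpain studied for its link to type 2 diabetes, was highest in P. Its level was 23.1, 23.0 and 24.2 CPM in D1, 37.5, 38.2 and 40.1 in P, 29.7, 26.2 and 26.8 in RBPMS KD1, and 20.6, 21.2 and 23.9 in MBNL KD. P and RBPMS KD1 each stood apart above the rest, and D1 and MBNL KD overlapped. Capn10 rose by 0.72 (SE 0.040) on the log2 scale in P (adjusted p = 2.8e-17) and by 0.24 (SE 0.047) in RBPMS KD1 (adjusted p = 8.1e-05). In MBNL KD the value was -0.09 (SE 0.051, adjusted p = 0.12), and without MBNL KD replicate 3 it was -0.16 with an adjusted p of 0.0066, in a range of 0.0066 to 0.83 over 15 alternatives.

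Capn15, a zinc finger calpain, was lower in P. Its level was 15.6, 17.2 and 15.8 CPM in D1, 9.28, 10.6 and 10.1 in P, 16.7, 14.7 and 15.1 in RBPMS KD1, and 16.7, 15.7 and 17.8 in MBNL KD. Every P library lay below the other 9, which overlapped. Capn15 fell by 0.70 (SE 0.060) on the log2 scale in P (adjusted p = 2.3e-12), to 61.6% of the D1 mean, with -0.06 (SE 0.057, adjusted p = 0.35) in RBPMS KD1 and 0.05 (SE 0.055, adjusted p = 0.43) in MBNL KD. It was also lower in P than in RBPMS KD1, by -0.66 (adjusted p = 2.2e-11).

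Capn7, which has domains that bind the membrane-remodelling ESCRT-III proteins, was lowest in RBPMS KD1. Its level was 63.1, 61.6 and 63.2 CPM in D1, 67.3, 65.5 and 66.4 in P, 47.6, 47.0 and 50.9 in RBPMS KD1, and 56.0, 56.4 and 56.2 in MBNL KD. The groups did not overlap. Capn7 fell by 0.37 (SE 0.034) on the log2 scale in RBPMS KD1 (adjusted p = 2.7e-10) and by 0.15 (SE 0.029) in MBNL KD (adjusted p = 4.6e-05), to 77.5% and 89.8% of the D1 mean. In P it was 0.08 higher (SE 0.030, adjusted p = 0.012), which did not pass without D1 replicate 2 (adjusted p = 0.067, in a range of 0.00073 to 0.067 over 15 alternatives). P and RBPMS KD1 differed by 0.43 (adjusted p = 3.1e-13).

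Over the 8 members other than Capn6 and Capn9, the median log2 fold change was -0.21 in P, -0.08 in RBPMS KD1 and -0.14 in MBNL KD, where those of all genes tested were 0.02, 0.0043 and 0.0099. With Capn6 at its lower bound, the median over 9 members in P was 0.07, so its sign turned on 1 gene. The median size, without sign, over the 8 members was 0.62, 0.30 and 0.14, where those of all genes were 0.46, 0.23 and 0.31.

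A list of 20 genes for proteins known to be cut by calpains was read beside the members. In P against D1, 2 were called higher and 3 lower, where 27.6% of all genes were called, and 7 and 11 passed the adjusted p alone, where 77.9% of all genes did (list median -0.12). Desmin (Des), a muscle intermediate filament, went from 2.57, 2.697 and 2.34 CPM in D1 to 13.4, 12.9 and 13.6 in P, a rise of 2.39 on the log2 scale (SE 0.077, adjusted p = 5.0e-24). Ezrin (Ezr), which ties actin to the membrane, rose by 1.32 (SE 0.026, adjusted p = 2.4e-30). Mylk, the myosin light chain kinase and also one of the smooth muscle markers, went from 234, 241 and 223 CPM in D1 to 6.68, 5.50 and 6.47 in P and to 75.0, 74.5 and 74.0 in RBPMS KD1. It fell by 5.23 in P (SE 0.044, adjusted p = 1.6e-40) and by 1.64 in RBPMS KD1 (SE 0.029, adjusted p = 1.5e-25). Filamin A (Flna), an actin crosslinker, fell by 1.99 in P (SE 0.026, adjusted p = 4.3e-35), and the third called lower was Atp2b4.

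Mylk was the single substrate called in RBPMS KD1, where 4.68% of all genes were called. There 4 of the 20 were higher and 10 lower by the adjusted p alone, where 59.1% of all genes passed it (list median -0.15). In MBNL KD, where 10.2% of all genes were called, 1 was called higher and 2 lower, and 8 and 10 passed the adjusted p alone, where 67.5% of all genes did (list median -0.12). Des rose by 1.41 there (SE 0.094, adjusted p = 4.7e-14). Atp2b4, a calcium pump of the plasma membrane, went from 88.8, 89.9 and 89.3 CPM in D1 to 30.8, 28.3 and 31.8 in MBNL KD, a fall of 1.55 (SE 0.035, adjusted p = 1.4e-25). Talin 1 (Tln1), which links integrins to actin, fell by 1.02 (SE 0.024, adjusted p = 4.4e-25). Substrate mRNA levels say nothing of cleavage, which was not measured.

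Caspases and cathepsins, which are cysteine proteases of other families, were listed as 18 genes, of which 17 were tested. In P, 4 were called higher and 1 lower, where 27.6% of all genes were called, and 8 in each direction passed the adjusted p alone, where 77.9% of all genes did (list median 0.10). Casp1, the inflammatory caspase, went from 0.644, 0.558 and 0.460 CPM in D1 to 19.3, 17.6 and 20.0 in P, a rise of 5.09 (SE 0.10, adjusted p = 2.9e-30). Ctss, a lysosomal cathepsin, rose by 3.82 in P (SE 0.15, adjusted p = 2.8e-21), and Ctsh, a lysosomal aminopeptidase, fell by 2.01 (SE 0.056, adjusted p = 7.0e-26). In RBPMS KD1, 3 of the 17 were called, all higher, where 4.68% of all genes were called. By the adjusted p alone 13 were higher and 2 lower there, where 59.1% of all genes passed it (list median 0.32). Ctss rose by 1.77 (SE 0.23, adjusted p = 1.7e-07) and Casp1 by 1.23 (SE 0.21, adjusted p = 1.1e-05). In MBNL KD, 2 of the 17 were called, both lower, where 10.2% of all genes were called, and 9 were higher and 3 lower by the adjusted p alone, where 67.5% of all genes passed it (list median 0.13). The genes called were the cathepsins Ctsb, which fell by 1.41 (SE 0.026, adjusted p = 1.2e-27), and Ctsf, which fell by 1.40 (SE 0.039, adjusted p = 2.1e-23).

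Cystatins and genes of the inhibitor of apoptosis family were listed together as other cysteine protease inhibitors, as 8 genes. They were taken by family name, and whether each inhibits a protease was not checked. In P, 2 of the 8 were called higher, Birc3 and Cst6, and 1 lower, where 27.6% of all genes were called, and by the adjusted p alone 5 were higher and 2 lower, where 77.9% of all genes passed it (list median 0.09). Birc3, of the inhibitor of apoptosis family, rose by 1.18 (SE 0.085, adjusted p = 2.2e-14). Cst6, a cystatin, held no counts in D1 and 36, 36 and 12 in P, at least 8.60-fold higher with each count taken as 1 fragment. Cst6 passed the filter on low counts through the P libraries, so it had to differ. Cst3, the abundant secreted cystatin C, fell by 1.18 in P (SE 0.025, adjusted p = 3.7e-29). In RBPMS KD1 0 of 7 were called by edgeR, where 4.68% of all genes were, with 3 higher and 2 lower by the adjusted p alone, where 59.1% of all genes passed it. In MBNL KD 0 of 7 were called by edgeR, where 10.2% of all genes were, with 1 higher and 4 lower by the adjusted p alone, where 67.5% of all genes passed it.

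**Figure D4:**
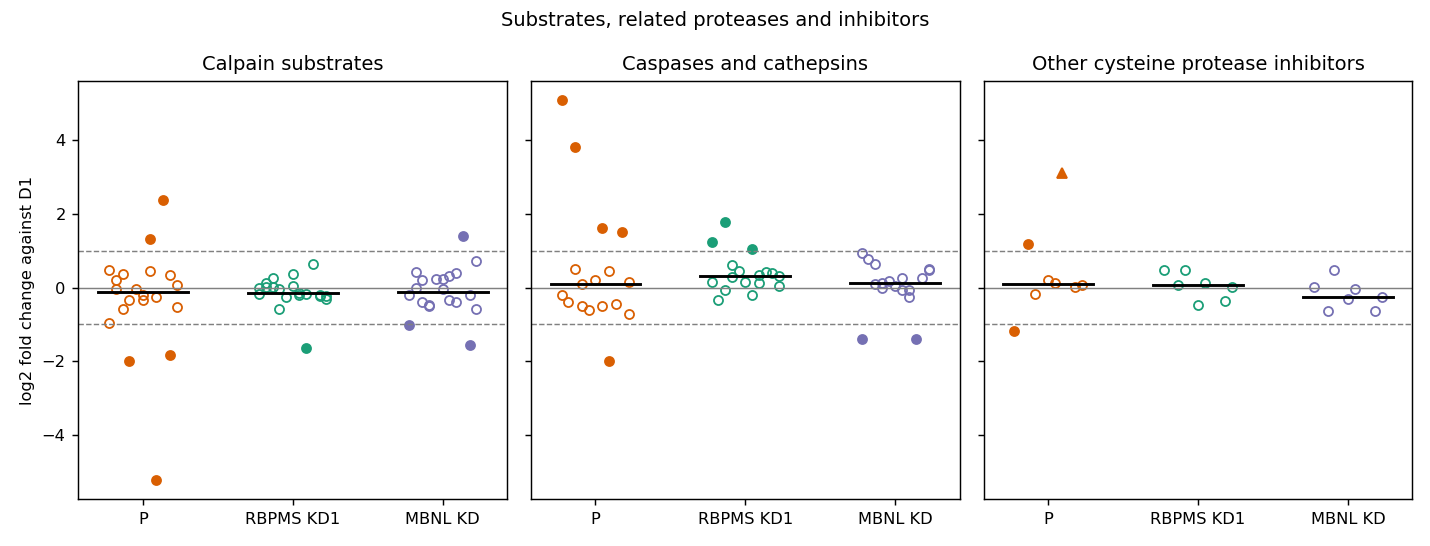
Log2 fold change against D1 (vertical axis) of genes for calpain substrates, of caspases and cathepsins, and of other cysteine protease inhibitors in P, RBPMS KD1 and MBNL KD. Filled symbols were called, the filled triangle is the lower bound for Cst6, horizontal bars are list medians and dashed lines are at -1 and 1. The points reach furthest from 0 in P, with Mylk at -5.23 and Casp1 at 5.09.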

How the data were processed

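Per the paper's methods, the authors subsampled the reads, aligned them to mRatBN7.2 with STAR (2.7.11b in the submitters' processing notes) and made the deposited counts per gene symbol with featureCounts. The deposited normalised table holds signal values on a linear scale, to which noisyR noise correction and then quantile normalization had been applied by the authors. Counts were used as deposited, and the strand setting and the treatment of mates are not given in the sources used here. Libraries were grouped by their labels. Total counts of 80842635 to 90771289 place 3 counts at 0.0318 to 0.0369 CPM, a limit for counting error only.

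Each comparison was fitted on its own 6 libraries with edgeR 4.0.16 in R 4.3.3 (filterByExpr, TMM, glmQLFit and glmQLFTest), with Benjamini-Hochberg adjustment over all genes tested and no replicate block. SE is the absolute log2 fold change over the square root of F. Correlations used log2 CPM with a prior count of 2, and ratios used counts + 0.5. DESeq2 1.42.0, limma 3.58.1 with a pseudocount of 1, other scalings and filters, a replicate block, 1 fit of 12 libraries and leaving out each library were alternatives. Summaries used Python 3.11.15, and the fits were tested on simulated data. The labels number the replicates without describing separate cultures, so p-values measure the spread between these libraries.

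The members and gene lists were chosen with earlier results of these data known. Named genes were all members, the 5 genes most like Capn9 and the 1 most opposite, the siRNA targets, and from each list the 2 largest rises and falls among called genes. RefSeq's GRCr8 tables served for promoters and gene order only.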

Additional observations from a re-analysis of the deposited data

How the results depend on the processing

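The 5 comparisons were recomputed under 15 alternatives. Of 703 log2 fold changes, 672 kept their direction and side of the threshold (for Capn9, their size), and of 167 counts and 120 ratios, 161 and 117 stayed close to the reported value. For members called, a minimum of 10 counts in every library gave 1 in P against D1 and 1 in P against RBPMS KD1, since Capn6 was not tested. A fit of all 12 libraries gave 1 in RBPMS KD1 and 1 in MBNL KD against D1, and no filter gave 1 in MBNL KD, since Capn6 was then tested. Capn2 in MBNL KD against RBPMS KD1, at -0.04, was 0.0021 under quantile normalization and 0.0018 in limma on the normalised values, and the cause was not tested. On the normalised values the log2 ratio differences were -0.84 for Capn1 to Capn2 in P, 0.15 for Cast to Capn1 in P and 0.80 for Cast to Capn1 in MBNL KD. By Spearman's correlation 0 of the 5 genes most like Capn9 were shared, and with the minimum of 10 counts 5 were.

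Leaving out 1 library left the members called at 2 to 2, 0 to 0 and 0 to 0 in P, RBPMS KD1 and MBNL KD against D1. Over all genes, the called genes in P against D1 were 4641, and 2933 with the minimum of 10 counts. P against RBPMS KD1 gave 4914 and 3154. In limma on the normalised values the calls were 206 against 745 in RBPMS KD1, 783 against 1643 in MBNL KD and 1037 against 1920 in MBNL KD against RBPMS KD1. Deviations of libraries with the same replicate number correlated at -0.033 to 0.020. These values show no strong shared signal, and they cannot tell whether such libraries were handled together. The replicate block gave 4593, 730 and 1634 calls against D1, 4897 in P against RBPMS KD1 and 1915 between the knockdowns, and it moved no member across either threshold. Halving the counts, chosen after seeing the data, moved none across either. Counts were few for Capn6, with at most 58 in any library, and for Capn9 in MBNL KD, with 11 to 14.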

Other observations

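The remaining calpain genes were low in these cells. Over the 12 libraries Capn3, the muscle calpain, had 27 to 82 counts, Capn8 had 0 to 21, Capn12 had 8 to 30, Capn11 had 0 to 4 and Capn13 had 0 to 2. Capn14 was looked up and is not among the genes of the count table. Capn3 was lower in P than in RBPMS KD1 by -1.05 on the log2 scale (SE 0.28, adjusted p = 8.8e-04). It was 0.58 higher in MBNL KD than in D1 (SE 0.24, adjusted p = 0.037), but the libraries of these groups overlapped. Capns2, an intronless relative of Capns1 whose reads are uncertain for that reason, held no counts in D1 and 29, 17 and 17 in P. That is at least 6.45-fold higher with each count taken as 1 fragment.

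The 4 genes next to Capn9 in the GRCr8 gene order had log2 fold changes between -0.22 and 0.44 in MBNL KD against D1, with Agt the lowest. Ttc13 was 0.44 higher there than in D1 (SE 0.025, adjusted p = 1.1e-15) and 0.95 higher in P (SE 0.026, adjusted p = 7.8e-26). Arv1 was 0.12 higher in MBNL KD (SE 0.049, adjusted p = 0.033), and Cog2 fell by 0.15 (SE 0.035, adjusted p = 5.3e-04). Of the 4 genes next to Capn6, Pak3 fell by 0.53 in P (SE 0.055, adjusted p = 2.0e-10) and was 1.09 higher in MBNL KD (SE 0.046, adjusted p = 7.1e-19). RGD1566355 rose by 0.56 in P (SE 0.083, adjusted p = 2.5e-07), and Chrdl1 and Dcx had at most 4 counts in any library.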
